A study of Homo sapiens with 30 samples.

Results

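The genes described here are 41 genes of homologous recombination and Fanconi crosslink repair, together with the checkpoint kinases and repair enzymes that act beside them. They were matched by name to the deposited table of gene counts, and the matching rule uses no measured value, though the list of names was drawn up with earlier results of these data known. The table holds 58780 genes. Of the 41, 40 matched by exact name, and FANCC was found by its gene identifier because the table joins its name with that of LOC105376156. All 41 passed a filter on low counts that left 22919 genes for testing.

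Nascent transcription was measured by PRO-seq (precision run-on sequencing), which labels the RNA that engaged RNA polymerases extend in permeabilised cells. The cells were A549, an established lung adenocarcinoma line, so every result comes from 1 line. All 15 groups received 0.01% DMSO and hold 2 libraries each, 30 in all. Cells were exposed to 1 µM of GSK591, which blocks PRMT5, or of MS023, which blocks the Type I enzymes of the same arginine methyltransferase family, and to Dex at 100 nM. The groups are untreated cells (labelled 15 min), Dex for 15 min or 3 h, Dex given together with GSK591 or with MS023 for 3 h, each inhibitor for 2, 4 or 7 days, and 7-day pre-treatment with either inhibitor before Dex was added for 15 min or 3 h. The same untreated pair served every comparison with untreated cells, whatever the length of treatment. The labels do not say that the 2 libraries of a group came from separate cultures, so p-values measure only the spread between these libraries, which may be technical.

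Homologous recombination repairs a broken chromosome by copying an intact sister chromatid. The ends are resected to single strands, BRCA1 with BARD1, PALB2 and BRCA2 prepare them for strand exchange, RAD51B, RAD51C, RAD51D, XRCC2, XRCC3 and the RAD54 proteins assist pairing with the sister, and helicases and nucleases resolve the joint molecules. In the Fanconi pathway a core complex attaches ubiquitin to FANCD2 and FANCI at DNA crosslinks, and the crosslink is then unhooked and handed to recombination. Many of these genes are transcribed most in cells that are about to replicate or are replicating DNA.

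RefSeq promoters (GRCh38.p14) were found for 37 of the 41 genes. Those of BLM and FANCD2, which fell most under 7 days of GSK591, and of ATM, which was among the genes that moved least, are printed from 250 bases before the start site to 20 after it. Capitals mark matches to 3 words searched on both strands: an E2F-like word (TTTCCCGC, TTTCGCGC, TTTGCCGC or TTTGGCGC), CCAAT, and the CHR word TTTGAA. The BLM window, chr15:90717096-90717365 on the plus strand, holds 3 CCAAT matches. The FANCD2 window, chr3:10026187-10026456 on the plus strand, holds 1 E2F-like match that spans the start site. The ATM window, chr11:108222817-108223086 on the plus strand, holds 1 CCAAT match and 1 CHR match.
BLM: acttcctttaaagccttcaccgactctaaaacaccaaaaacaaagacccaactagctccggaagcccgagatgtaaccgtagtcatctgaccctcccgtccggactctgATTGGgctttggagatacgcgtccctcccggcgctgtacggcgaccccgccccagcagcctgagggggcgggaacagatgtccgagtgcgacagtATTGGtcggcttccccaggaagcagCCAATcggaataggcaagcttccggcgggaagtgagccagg
FANCD2: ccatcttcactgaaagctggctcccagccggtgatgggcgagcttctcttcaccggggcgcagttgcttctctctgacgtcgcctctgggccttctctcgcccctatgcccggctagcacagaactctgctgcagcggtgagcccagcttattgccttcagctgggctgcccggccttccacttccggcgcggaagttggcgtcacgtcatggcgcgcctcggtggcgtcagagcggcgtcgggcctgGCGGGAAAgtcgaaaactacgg
ATM: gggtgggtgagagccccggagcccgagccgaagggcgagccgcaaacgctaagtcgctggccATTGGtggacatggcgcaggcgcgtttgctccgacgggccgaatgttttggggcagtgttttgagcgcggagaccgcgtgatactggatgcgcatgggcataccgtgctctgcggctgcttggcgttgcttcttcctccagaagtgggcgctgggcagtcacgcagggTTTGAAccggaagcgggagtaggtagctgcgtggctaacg

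The E2F-like word stood in 7 of the 37 promoters (18.9%) and in 3.31% of all 35116 RefSeq promoters of the same length. The latter were not limited to genes tested here or to 1 promoter per gene, so the shares are not matched. It was present in 6 of the 17 genes with a promoter that were lower after 7 days of GSK591 (35.3%), namely XRCC2, EXO1, FANCA, FANCC, FANCD2 and MSH6, and in 1 of the 20 that were not called (5%), TOPBP1. CCAAT stood in 34.6% of all promoters, in 41.2% of the lower genes and in 35% of those not called. The CHR word stood in 15.2% of all promoters, in 17.6% of the lower genes and in 5% of those not called. These are descriptions of letters in a window, and a window without a match says nothing about a factor.

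Library totals ran from 8441211 to 13069598 counts, with a median of 10141639.5, of which 62.3% to 84.0% were mitochondrial genes and their nuclear copies. Between 1886444 and 3482686 counts per library remained for nuclear genes, so the less transcribed of the 41 genes rest on few counts per library. The mitochondrial share was 80.7% and 77.8% in untreated cells, 78.3% and 84.0% after 7 days of GSK591, and 62.9% and 64.5% after 7 days of MS023. Removing mitochondrial and ribosomal RNA genes left the same genes called, 19 for 7 days of GSK591 and 10 for 7 days of MS023. Trimmed-mean normalisation was kept in that fit and already leaves out the most abundant genes, so the calls could hardly change. The part of the mitochondrial share in the results was not tested. The epithelial markers KRT8 and KRT18 were present in every library (157 to 456 and 56.5 to 189 CPM, counts scaled to library size). The epithelial marker EPCAM was low at 0.957 to 6.19 CPM. Of the leukocyte markers, PTPRC was at 0 in 13 libraries and CD3E in 21, while CD14 ran from 0.613 to 5.82 CPM. Of the fibroblast markers, DCN was at 0 in 15 libraries, while COL1A1 ran from 2.41 to 8.24 CPM and COL3A1 from 0.0978 to 1.91 CPM. The endothelial markers PECAM1, CDH5 and VWF did not exceed 1.26 CPM and were at 0 in 1, 3 and 5 libraries. Replicates correlated with r of 0.96 to 0.984 across genes except for Dex given together with MS023, where r was 0.924. Its replicate 2 stood apart, and results that rest on that group are given with and without it.

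In untreated cells the transcription of the 41 genes, as CPM per kilobase of exon, ran from 0.178 (RAD51B) to 7.44 (FANCG) with a median of 1.78. The level per kilobase was next highest for KAT5 at 7.21, EME1 at 6.56, MUS81 at 5.90 and MSH6 at 4.78. KAT5 is the TIP60 acetyltransferase that activates ATM, EME1 and MUS81 form a nuclease that cuts joint molecules, and MSH6 recognises mismatches. BRCA1 stood at 2.05 per kilobase, FANCD2 at 1.28, ATM at 0.834, BRCA2 at 0.525, RAD54B at 0.388 and FANCB at 0.303. PARP1, the enzyme that marks broken strands with poly(ADP-ribose), stood at 2.91. Whether exons or whole genes were counted is not given in the sources used here, so levels per kilobase of exon are approximate where introns were counted too. FANCB, RAD51B, RAD54B and RAD51AP1 had the lowest mean levels over the 30 libraries, and FANCB stood at 0.667 and 1.51 CPM in untreated cells.

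After 7 days of GSK591, 19 of the 41 genes were lower than in untreated cells and none was higher (edgeR quasi-likelihood test, Benjamini-Hochberg adjusted p under 0.05). Of all genes tested, 6.52% were called lower and 6.68% higher, 13.2% in all. The median change of the 41 genes was -0.86 on the log2 scale. Libraries of the treated group lay wholly below the untreated pair for 31 genes, against 28.0% of all genes tested. They lay wholly above for 3, against 27.8% of all genes tested, and overlapped for 7. In these bulk libraries, fewer cells of a type and less RNA per cell cannot be told apart.

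All 4 of the genes of the BRCA complexes and mediators were lower. BRCA1 (chr17:43044295-43170245, minus strand), a ubiquitin ligase subunit, stood at 19.7 and 17.9 CPM in the untreated libraries and at 6.16 and 6.57 CPM after GSK591, a change of -1.56 ± 0.242 (SE, log2; adjusted p = 3.86e-05). BRCA2 (chr13:32315474-32400266, plus strand), the main mediator of strand exchange, stood at 7.45 and 5.44 CPM and then at 1.39 and 2.28 CPM, a change of -1.82 ± 0.420 (adjusted p = 0.00376). BARD1, the partner of BRCA1, stood at 6.01 and 9.87 CPM and then at 3.72 and 2.14 CPM, a change of -1.42 ± 0.285 (adjusted p = 0.000332). For these 3 genes the treated libraries did not overlap the untreated ones. PALB2, which bridges BRCA1 and BRCA2, changed less, by -0.62. Without GSK591 replicate 1 BRCA2 was not called (adjusted p = 0.0893), and without untreated replicate 2 BARD1 was -1.01 with an adjusted p of 0.0625. PALB2 lost its call whichever of the 4 libraries was left out.

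Of the 5 genes RAD51B, RAD51C, RAD51D, XRCC2 and XRCC3, whose products assist strand exchange, 2 were lower. XRCC2 stood at 9.12 and 9.07 CPM in untreated cells and at 2.44 and 2.68 CPM after GSK591, a change of -1.83 ± 0.284 (adjusted p = 4.96e-06). RAD51C stood at 15.7 and 18.8 CPM and then at 6.63 and 6.57 CPM, a change of -1.39 ± 0.165 (adjusted p = 1.69e-08). Neither gene's groups overlapped. Of the 3 strand exchange helpers, 2 were lower: RAD54B, a motor protein related to RAD54, at 2.0 and 2.12 CPM and then 0.697 and 0.536 CPM (-1.71 ± 0.505, adjusted p = 0.0164), and RAD54L, which changed by -0.60. Both lost the call when any 1 of the 4 libraries was left out, and for RAD54B the adjusted p was then 0.0574 to 0.133. RAD51AP1, which aids strand invasion, was measured at -1.23 with an adjusted p of 0.128.

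Among the 4 genes of end resection, only EXO1 was called. This exonuclease stood at 7.56 and 6.35 CPM in untreated cells and at 1.74 and 2.81 CPM after GSK591, a change of -1.62 ± 0.296 (adjusted p = 7.92e-05), without overlap. RAD50, NBN and RBBP8 did not pass the test at 7 days, and the median of the 4 was -0.36. Among the helicases, BLM and BRIP1 were lower. BLM (chr15:90717327-90816165, plus strand), which dissolves double Holliday junctions and whose promoter is printed above, stood at 6.67 and 5.34 CPM and then at 0.930 and 1.47 CPM. Its change of -2.33 ± 0.395 (adjusted p = 3.34e-05; 95% interval -3.12 to -1.53), 5.01-fold lower, was the largest among the called members of the 41. BRIP1, the BRCA1-bound helicase, changed by -1.20, and WRN was not called.

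Both genes of the complex that receives ubiquitin were lower. FANCD2 (chr3:10026414-10101930, plus strand), the ubiquitinated clamp, stood at 11.9 and 9.47 CPM in untreated cells and at 3.02 and 2.28 CPM after GSK591, a change of -1.99 ± 0.266 (adjusted p = 2.13e-07). FANCI, its partner, stood at 24.5 and 17.7 CPM and then at 7.90 and 7.37 CPM, a change of -1.46 ± 0.338 (adjusted p = 0.00787). Both libraries of the treated group were below both untreated ones for each. FANCI was not called without untreated replicate 1 (adjusted p = 0.0762), GSK591 replicate 1 (0.0618) or GSK591 replicate 2 (0.0686).

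Of the 8 genes of the Fanconi core complex and its anchor, 4 were lower. FANCE stood at 3.45 and 4.63 CPM and then at 2.21 and 0.804 CPM, a change of -1.38 ± 0.343 (adjusted p = 0.00368), but without GSK591 replicate 2 it was -0.87 with an adjusted p of 0.175, and without untreated replicate 2 the adjusted p was 0.0923. FANCM, the anchor that finds stalled forks, changed by -1.10. FANCA, a core subunit, stood at 32.4 and 29.5 CPM and then at 14.9 and 16.6 CPM, a change of -0.98, without overlap. FANCC changed by -0.51 and lost its call without untreated replicate 2 or GSK591 replicate 1. FANCB rested on 6 and 15 counts in untreated cells and 4 and 1 counts after GSK591, and was not called (adjusted p = 0.122).

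None of the 6 checkpoint genes was called at 7 days. ATM (chr11:108222484-108369102, plus strand), the kinase that responds to double-strand breaks, stood at 21.4 and 18.6 CPM in untreated cells and at 20.1 and 18.8 CPM after GSK591, a difference of -0.04 ± 0.158 (adjusted p = 0.917; 95% interval -0.36 to 0.28), with overlapping libraries. ATR (chr3:142449235-142578826, minus strand), the kinase of stalled forks, stood at 6.45 and 6.05 CPM and at 5.23 and 5.90 CPM, a difference of -0.17 ± 0.252 (adjusted p = 0.728; 95% interval -0.68 to 0.34), with the treated pair just below the untreated one. KAT5 (chr11:65711996-65719604, plus strand) stood at 23.6 and 30.2 CPM and at 21.6 and 25.3 CPM, a difference of -0.20 ± 0.146 (adjusted p = 0.405; 95% interval -0.50 to 0.09), with overlap. The intervals of these 3 genes did not reach the -1.56 measured for BRCA1. The interval of TOPBP1, the activator of ATR, was wider, from -1.63 to -0.10. The median of the 3 nuclease genes EME1, MUS81 and SLX4 was 0.07, and none was called.

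Of the remaining 3 genes, POLQ and MSH6 were lower. POLQ, the polymerase of microhomology-mediated end joining, stood at 17.6 and 15.9 CPM in untreated cells and at 5.93 and 4.56 CPM after GSK591, a change of -1.66 ± 0.259 (adjusted p = 3.31e-05). MSH6 stood at 53.2 and 52.0 CPM and then at 25.9 and 27.1 CPM, a change of -0.99. PARP1 (chr1:226360691-226408079, minus strand) stood at 24.0 and 17.7 CPM and at 11.2 and 11.4 CPM, a difference of -0.88 ± 0.292 that did not pass (adjusted p = 0.0550; 95% interval -1.47 to -0.30), although its libraries did not overlap. It did pass without the filter on low counts (adjusted p = 1.01e-05) and by DESeq2 (0.027). Over all 41 genes, leaving out any 1 of the 4 libraries left 13 to 15 of the 41 genes called, all lower.

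Under GSK591 the number of genes called lower was 1 at 2 days, 19 at 4 days and 19 at 7 days. After 2 days only MSH6 was called among the 41, lower at 31.7 and 27.6 CPM against 53.2 and 52.0 CPM in untreated cells (-0.83 ± 0.136, adjusted p = 0.000111), where 2.45% of all genes tested were lower, 3.19% higher and 5.64% called. The median of the 41 genes was then -0.28, and with total counts as the only scaling MSH6 was not called (-0.54, adjusted p = 0.172). After 4 days 19 were lower and none higher, against 8.28% of all genes lower, 8.91% higher and 17.2% called, with a median of -0.66, and with total counts as the only scaling 8 were lower and 1 higher. BRCA1 stood at 12.6 and 13.1 CPM at 2 days, 5.76 and 5.82 CPM at 4 days and 6.16 and 6.57 CPM at 7 days, so its libraries at 4 days already lay at the level of 7 days. The largest changes at 4 days were those of FANCB (-2.12, adjusted p = 0.0468, on 4 and 1 counts), RAD51AP1 (-2.04, adjusted p = 0.00795), BLM (-1.84), XRCC2 (-1.75) and BRCA1 (-1.70). FANCB ran from -1.40 to -3.32 with single libraries left out and was called in 1 of those 4 fits, nor was it called without the filter (adjusted p = 0.0596) or under total counts (0.120). RAD51AP1 was not called without untreated replicate 2 (adjusted p = 0.0832) or GSK591 4-day replicate 2 (0.0927). BRCA2 was -1.17, FANCD2 -1.51 and MSH6 -0.98. The count at 4 days was 12 without untreated replicate 2 or without GSK591 4-day replicate 2.

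Between 2 and 4 days of GSK591, 6 of the 41 genes fell, where 2.25% of all genes tested were lower, 1.14% higher and 3.39% called: EXO1 (-1.17), BRCA1 (-1.15), FANCD2 (-1.03), XRCC2 (-1.02), FANCA (-0.89) and RAD51C (-0.71). With total counts as the only scaling none of the 6 was called. When single libraries were left out, 1 to 3 genes were called, and XRCC2 was -0.66 without GSK591 2-day replicate 2. FANCD2 stood at 7.53 and 7.70 CPM at 2 days and at 3.75 and 3.71 CPM at 4 days. Between 4 and 7 days only RAD50, the bridging subunit of the MRN complex, was lower (-0.56, adjusted p = 0.0105), at 21.2 and 20.8 CPM and then 15.1 and 13.3 CPM, where 4.25% of all genes were lower, 4.05% higher and 8.29% called. With single libraries left out 0 to 1 genes were called in this step, and DESeq2 called none.

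**Figure D1:**
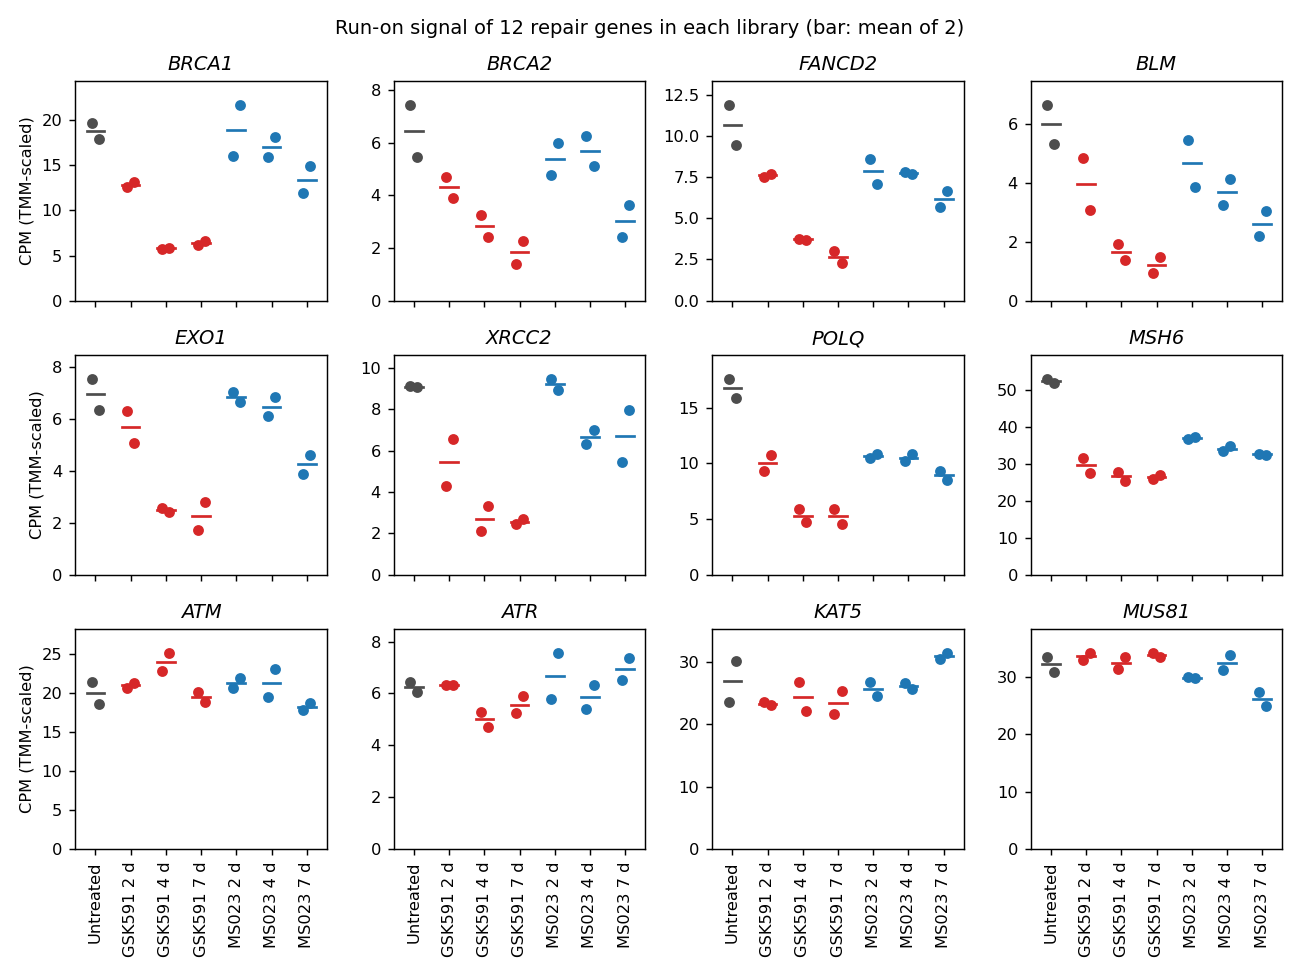
Normalised level (CPM) of 12 of the genes in each library (points; bars mark the mean of 2) of 7 groups: untreated cells and 2, 4 and 7 days of GSK591 or MS023. Each panel has its own axis from 0. BRCA1 runs from 19.7 and 17.9 CPM in untreated cells to 6.16 and 6.57 CPM after 7 days of GSK591, while ATM stays at 20.1 and 18.8 CPM there, overlapping the untreated pair.

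The directions measured under MS023 depended on scaling. With trimmed-mean normalisation 2 were lower and 1 higher at 2 days (4.21% of all genes lower, 6.18% higher, 10.4% called), 4 were lower at 4 days (6.37% lower, 7.80% higher, 14.2% called) and 10 were lower at 7 days (6.51% lower, 7.13% higher, 13.6% called), with medians of -0.23, -0.28 and -0.44, but with total counts as the only scaling 14, 14 and 19 were called and all of them were higher. Total counts moved the median of all genes by 0.67, 0.74 and 1.02 on the log2 scale in these 3 comparisons, against -0.03 for 7 days of GSK591. These totals include the mitochondrial counts. With mitochondrial and ribosomal RNA genes removed and trimmed-mean normalisation kept, the same 3, 4 and 10 genes were called. The changes given below are relative to the median gene.

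At 2 days of MS023, FANCC stood at 23.3 and 23.8 CPM (-0.57, adjusted p = 0.00263), MSH6 changed by -0.51 (adjusted p = 0.00776), both of them positive under total counts, and FANCF, an adaptor subunit of the core complex, stood at 12.1 and 12.0 CPM against 7.56 and 9.07 CPM in untreated cells (0.53, adjusted p = 0.0390). FANCF was the one gene of the 41 called higher, and it lost that call with any 1 of the 4 libraries left out (adjusted p = 0.0679 to 0.327), without the filter (0.101) and by DESeq2 (0.133). MSH6 was called only with untreated replicate 2 left out among those 4 fits, and FANCC was not called without untreated replicate 2 (adjusted p = 0.0588). At 4 days of MS023 POLQ (-0.67), FANCC (-0.65), MSH6 (-0.62) and FANCA (-0.45) were called lower, again with positive values under total counts, and POLQ was not called with any 1 library left out. Without untreated replicate 1 or 2 the count at 4 days was 2. Between 4 and 7 days FANCC was higher by 0.52 (adjusted p = 0.00457), the only call and one lost without either 4-day library or without 7-day replicate 1 (adjusted p = 0.0503 to 0.124), where 4.28% of all genes were higher, 4.76% lower and 9.04% called, and between 2 and 4 days none of the 41 was called by edgeR or by DESeq2 (2.69% of all genes lower, 2.22% higher and 4.91% called by edgeR).

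At 7 days of MS023 the largest falls among the 41 were those of the helicase BLM and of BRCA2. BLM stood at 2.20 and 3.04 CPM against 6.67 and 5.34 CPM (-1.19, adjusted p = 0.00615). BRCA2 stood at 2.41 and 3.62 CPM against 7.45 and 5.44 CPM (-1.09, adjusted p = 0.0350). Neither gene overlapped the untreated pair, where 28.7% of all genes tested lay wholly below it. Under total counts BLM became -0.17 and BRCA2 -0.07. BRCA2 lost its call with any 1 of the 4 libraries left out (adjusted p = 0.0519 to 0.272) and by DESeq2 (0.0697), and BLM without untreated replicate 1 (0.0959) or MS023 replicate 1 (0.112). POLQ (-0.90), FANCD2 (-0.79; 5.67 and 6.66 CPM, adjusted p = 0.00797) and EXO1 (-0.70) came next and were positive under total counts. EXO1 was not called with any 1 library left out, and FANCD2 was not called without untreated replicate 1 (adjusted p = 0.161) or MS023 replicate 1 (0.113), nor POLQ without untreated replicate 1 (0.0644) or MS023 replicate 2 (0.0809). The others called were RAD51C (-0.69), MSH6 (-0.69), FANCA (-0.66), BRIP1 (-0.60) and FANCG (-0.44). BRCA1 stood at 11.9 and 14.9 CPM and did not pass (-0.49, adjusted p = 0.115), nor did ATM (-0.13), ATR (0.15), KAT5 (0.20) or PARP1 (-0.70), but under total counts ATR was 1.17 (adjusted p = 0.000481) and KAT5 1.20 (9.59e-06), both called. Leaving out any 1 of the 4 libraries left 5 to 6 genes called, and DESeq2 called 6.

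The inhibitors were compared directly at the same times and at the same concentration. At 2 days no gene of the 41 was called by edgeR or DESeq2, with 1.58% of all genes lower, 1.11% higher and 2.69% called. At 4 days 10 were lower under GSK591 than under MS023 and 1 was higher (3.52% of all genes lower, 2.51% higher, 6.03% called). At 7 days 9 were lower and 1 higher (4.47% of all genes lower, 4.91% higher, 9.38% called). The median differences were -0.04, -0.36 and -0.39. At 7 days under total counts 40 of the 41 were called, as the median of all genes moved by -1.07 between the inhibitors.

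The genes that differed most at 7 days act at several steps. XRCC2 was -1.39 (adjusted p = 0.000573), from 5.45 and 7.96 CPM under MS023 and 2.44 and 2.68 CPM under GSK591. FANCD2 was -1.20 (adjusted p = 0.00210), BRCA1 -1.07 (adjusted p = 0.00405), BARD1 -1.01 (adjusted p = 0.0167) and EXO1 -0.92 (adjusted p = 0.0445). Also lower were FANCM (-0.71), RAD51C (-0.70), PALB2 (-0.64) and CHEK1 (-0.43), the checkpoint kinase downstream of ATR. MUS81 was higher under GSK591 by 0.37 (adjusted p = 0.0345; 34.3 and 33.6 CPM against 27.4 and 25.0 CPM), but under total counts it was -0.67, and it was not called with any 1 library left out (adjusted p = 0.0685 to 0.251) or by DESeq2 (0.102). EXO1 was also not called with any 1 library left out (-0.60 without GSK591 replicate 1) or by DESeq2. BARD1 was not called without GSK591 replicate 2 (-0.68) or MS023 replicate 2 (-0.73), BRCA1 without GSK591 replicate 1 or MS023 replicate 2, and FANCD2 without GSK591 replicate 2, while XRCC2 was called in all 4 of these fits. At 4 days BRCA1 was -1.55, EXO1 -1.37, XRCC2 -1.30, BLM -1.14 and FANCD2 -1.05, and FANCC was higher by 0.49. BLM was not called at 4 days with any 1 library left out, FANCC was called in 1 of those 4 fits, and XRCC2 was not called without GSK591 4-day replicate 1. Without single libraries 3 to 7 genes were called at 4 days and 2 to 5 at 7 days, and DESeq2 called 7 and 4.

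After 15 min of Dex alone none of the 41 genes was called by edgeR or DESeq2, none reached an unadjusted p under 0.05, and 0.301% of all genes were lower, 0.960% higher and 1.26% called. After 3 h 2 were lower (4.41% of all genes lower, 10.5% called) and 5 had an unadjusted p under 0.05. WRN, the helicase of Werner syndrome, stood at 7.34 and 4.13 CPM in untreated cells and at 1.91 and 2.32 CPM after 3 h (-1.43, adjusted p = 0.0325), and MSH6 at 34.4 and 32.2 CPM (-0.66, adjusted p = 0.000408). Neither overlapped. WRN was not called without untreated replicate 1 (-0.97, adjusted p = 0.323), Dex replicate 1 (0.214) or Dex replicate 2 (0.131). With total counts as the only scaling none of the 41 was called after 3 h.

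Adding GSK591 to Dex for 3 h gave no call by edgeR among the 41 genes or among all genes (0% of all genes), with 4 of the 41 at an unadjusted p under 0.05, and none by DESeq2. Adding MS023 gave none by edgeR (0.0611% of all genes lower, 0.135% higher, 0.196% called), 9 at an unadjusted p under 0.05 and 1 by DESeq2, with a median of 0.24. That median rested on replicate 2, which stood apart. BRCA1 was at 19.0 and 36.9 CPM in its replicates 1 and 2 (0.84 against Dex, adjusted p = 0.0673), and BRCA2 at 5.25 and 12.9 CPM (0.93, adjusted p = 0.197). Without replicate 2 the median was -0.02 and none was called, and without replicate 1 15 were called, all higher.

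Comparing cells pre-treated for 7 days with cells given Dex alone repeated the measurement of the inhibitors on other libraries. Under GSK591 followed by 15 min of Dex, 19 of the 41 genes were lower than with Dex for 15 min (8.58% of all genes lower, 15.3% called, median -0.57), and under GSK591 followed by 3 h of Dex, 17 were lower than with Dex for 3 h (7.36% lower, 13.6% called, median -0.45). The largest changes with 15 min were RAD51AP1 (-3.21, from few counts), FANCE (-2.17), EXO1 (-1.97), FANCD2 (-1.78) and POLQ (-1.77). With 3 h they were BARD1 (-2.29; 7.55 and 6.23 CPM and then 1.43 and 1.38 CPM), RAD51AP1 (-2.21), POLQ (-2.04) and XRCC2 (-1.83). RAD51AP1 rested on 20 and 13 counts with Dex and 3 and 4 counts with GSK591 before it, and was not called by DESeq2 (adjusted p = 0.0506) or without Dex replicate 1 (0.0986), GSK591 3-h replicate 1 (0.106) or GSK591 3-h replicate 2 (0.0562). FANCB was also called at 3 h, on 14 and 5 counts with Dex and 0 and 1 counts with GSK591 before it, too few for a fold to be given. Without GSK591 3-h replicate 1, 11 genes were called.

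The comparisons of 7-day GSK591 without Dex, with 15 min and with 3 h of Dex share no library. In all 3, 13 genes were called lower, namely BRCA1, BARD1, RAD51C, XRCC2, EXO1, BLM, BRIP1, FANCA, FANCE, FANCM, FANCD2, POLQ and MSH6. Another 5 (BRCA2, PALB2, RAD51AP1, RAD50 and FANCC) were called in 2 of the 3, 6 in 1, and 17 in none, and 30 of the 41 were below 0 in all 3. ATM, ATR, KAT5 and PARP1 were among the 17. All genes tested were not counted in this way, so no share of all genes stands beside these numbers. As a description over the 41 genes, the pairs of these 3 sets of changes correlated with Pearson r of 0.712, 0.700 and 0.664.

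**Figure D2:**
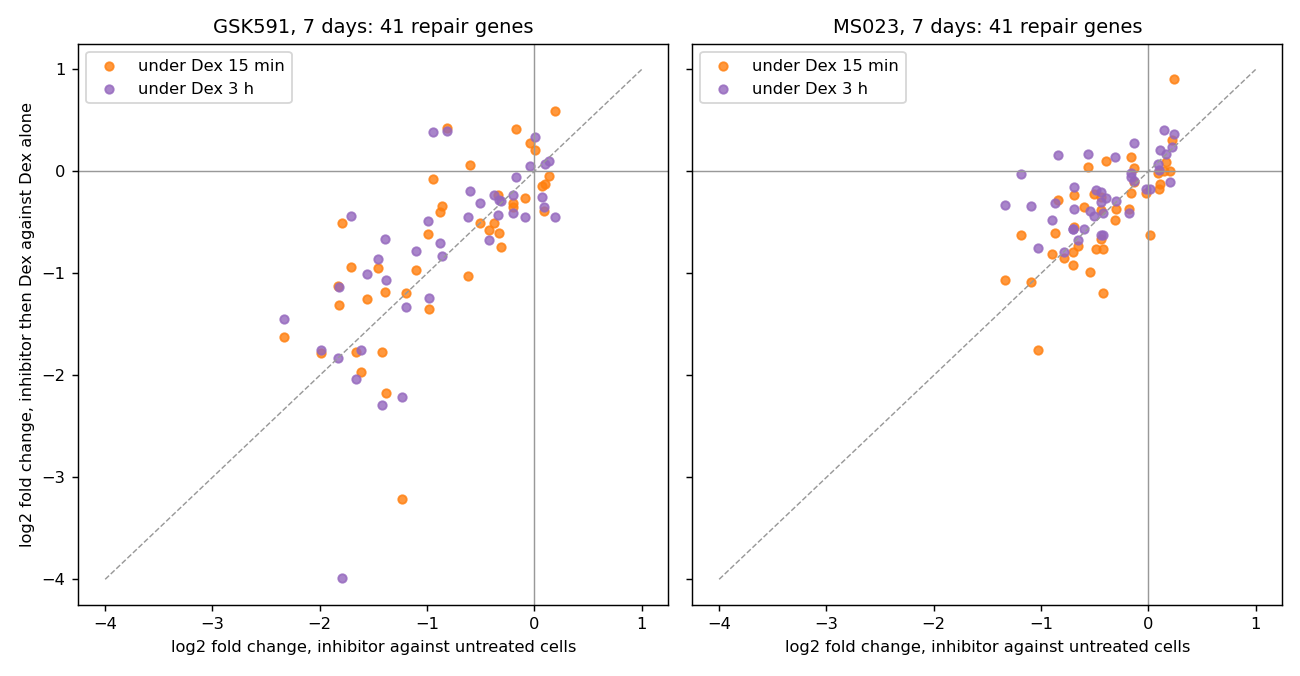
Log2 fold change of each of the 41 genes (points) under 7 days of an inhibitor without Dex (horizontal) against the same with Dex for 15 min or 3 h, each set against its own controls without shared libraries; the dashed line marks equality. For GSK591 30 of the 41 genes lie below 0 in all 3 sets, with r of 0.712 and 0.700 against the set without Dex. The lowest GSK591 point, FANCB, rests on 0 and 1 counts. For MS023 25 lie below 0 in all 3 with trimmed-mean scaling, and many of these are positive under total counts. The same counts over all genes tested were not made.

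For MS023 the numbers were smaller and again depended on scaling. With 15 min of Dex 15 genes were lower and 1, FANCF, was higher by 0.91 (7.75% of all genes lower, 7.54% higher, 15.3% called, median -0.37), but total counts gave 1 lower and 3 higher. RAD51AP1 (-1.75), FANCE (-1.19), BRCA2 (-1.08), XRCC3 (-0.99) and EXO1 (-0.92) were lowest. Without Dex 15-min replicate 2 RAD51AP1 was -1.18, BRCA2 -0.56 and EXO1 -0.56, and none of these 3 was called. With 3 h 4 were lower (6.11% of all genes lower, 11.5% called, median -0.20): FANCD2 (-0.79), FANCA (-0.67), FANCG (-0.62) and EME1 (-0.41), all positive under total counts, which called 17 genes, all higher. FANCD2 was not called without Dex 3-h replicate 2 (-0.49) or MS023 3-h replicate 2 (-0.56). FANCA, FANCG and FANCD2 were called lower in all 3 pairings, BRCA2, EXO1, POLQ and MSH6 in 2, 12 genes in 1 and 22 in none. In all 3, 25 lay below 0. As for GSK591, all genes tested were not counted in this way. Without Dex 15-min replicate 2 or MS023 15-min replicate 1, 5 genes were called with 15 min of Dex.

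Under Dex for 3 h the pre-treatments were again compared directly, and 13 of the 41 genes were lower after GSK591 than after MS023 and 2 higher (5.05% of all genes lower, 6.08% higher, 11.1% called, median -0.49). BARD1 (-1.67), POLQ (-1.56), XRCC2 (-1.53) and BLM (-1.42) differed most among the genes with more than a few counts. EME1 (0.48) and FANCG (0.39) were higher after GSK591, and both reversed under total counts. BLM was not called without GSK591 3-h replicate 1, GSK591 3-h replicate 2 or MS023 3-h replicate 1. Without single libraries 5 to 8 were called, and DESeq2 called 7.

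Whether Dex changed the effect of the inhibitors was tested as an interaction. None of the 41 genes was called for either inhibitor by edgeR or DESeq2 (0.223% of all genes each), with 3 at an unadjusted p under 0.05 for GSK591, namely RAD51C (0.73, adjusted p = 0.202), WRN (1.32, adjusted p = 0.561) and MSH6 (0.50, adjusted p = 0.394). For MS023 there were 2, BLM (1.16, adjusted p = 0.347) and MSH6 (0.54, adjusted p = 0.286). Within GSK591-treated cells 3 h of Dex gave no call among the 41 (9.85% of all genes called, 5 of the 41 at an unadjusted p under 0.05, none by DESeq2). Within MS023-treated cells it gave 1, SLX4, the scaffold of repair nucleases, from 7.79 and 7.60 CPM to 10.5 and 12.3 CPM (0.57, adjusted p = 0.0461; 5.72% of all genes higher, 11.1% called), which was not called by DESeq2 or with any 1 library left out.

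Other repair and replication genes were counted from lists of neighbouring pathways that were drawn up with earlier results of these data known. After 7 days of GSK591, 28 of the 36 measured genes of a DNA replication list were lower and none higher, with a median of -1.26. CDC45 (-2.35), MKI67 (-2.14) and MCM2 (-2.11) fell most. This list, called the replication genes below, also holds MKI67, a proliferation marker, and the cell-cycle genes E2F1, CCNE2 and CCNA2. MKI67 stood at 80.7 and 68.4 CPM in untreated cells and at 16.3 and 17.6 CPM after GSK591. Of 54 other recombination and crosslink genes 17 were lower and 2 higher, with a median of -0.34. CLSPN, the ATR mediator, fell from 19.6 and 15.5 CPM to 3.14 and 4.69 CPM (-2.17), and FIGNL1, a recombination factor, changed by -1.82. ZSWIM7 (0.83) and FAAP20 (0.38) were higher.

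The other repair routes were counted in the same way after 7 days of GSK591, where 6.52% of all genes were lower and 6.68% higher. Of 18 end-joining genes 2 were lower and 1 higher (median -0.14; DCLRE1C -0.57, PAXX -0.52, POLM 0.47). Of 26 base and nucleotide excision repair genes 2 were lower and 2 higher (median -0.06; UNG -1.16, TDG -0.59, POLB 0.71, NEIL1 0.39). Of 16 other genes of the TIP60 complex, the partners of KAT5, 4 were lower and none higher (median -0.28; YEATS4 -0.90, ACTL6A -0.75). The counts of the end-joining and excision repair lists lie near those shares, and no list was compared with another by a test. After 7 days of MS023 with trimmed-mean scaling, 6.51% of all genes were lower and 7.13% higher. For the lists in the order given, the counts lower were 19 of 36 (median -0.67), 10 of 54 (-0.22), 2 of 18 (-0.20), 4 of 26 (-0.18) and 1 of 16 (-0.22). Only NTHL1, of the excision repair list, was higher (0.66). The counts of the end-joining and TIP60 lists lie near the share of all genes. Total counts move the median of all genes by 1.02 in this comparison.

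Summed over the 41 genes, the level was 595 and 588 CPM in untreated cells, 492 and 502 CPM after 2 days of GSK591, 432 and 422 CPM after 4 days and 398 and 403 CPM after 7 days. Under MS023 it was 514 and 526, 496 and 505, and 473 and 476 CPM at the same times. The summed level of the replication genes was 704 and 690 CPM in untreated cells, then 540 and 504, 336 and 336, and 312 and 328 CPM under GSK591, and 443 and 444 CPM after 7 days of MS023. Dex together with MS023 gave 539 and 677 CPM for the 41 genes and 616 and 843 CPM for the replication genes, replicate 2 being the high one for both. The replication genes moved with the 41, and their part in the result was not tested.

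**Figure D3:**
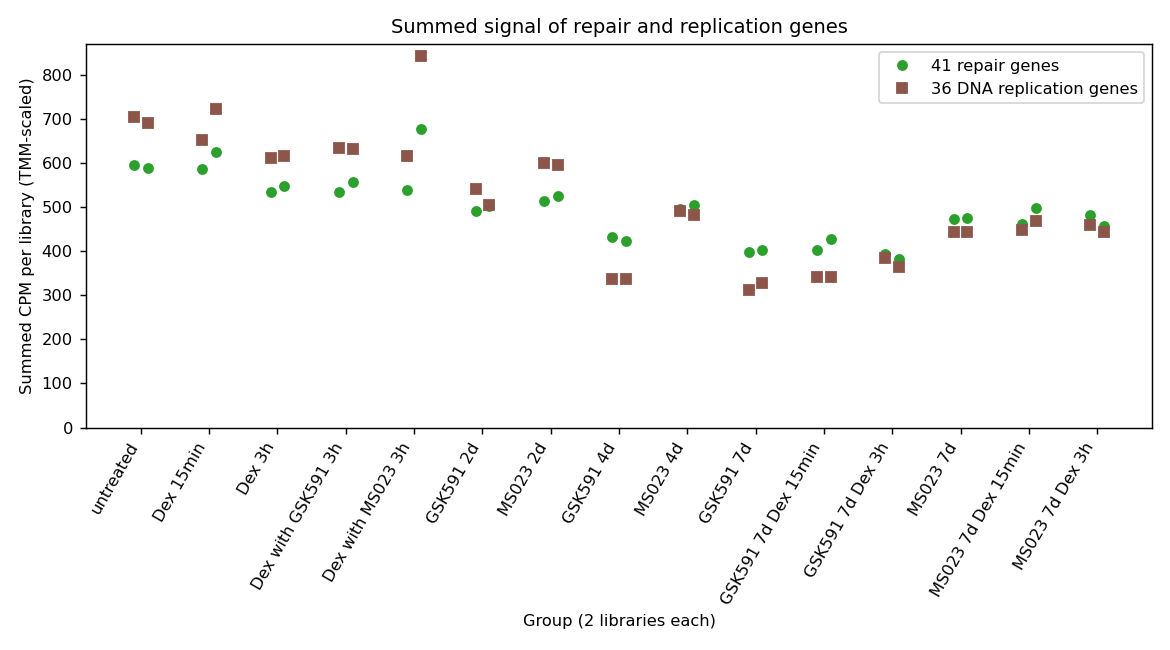
Summed level in CPM of the 41 genes and of the replication genes in each library (points) by group, with axes from 0. The 41 genes run from 595 and 588 CPM in untreated cells to 398 and 403 CPM after 7 days of GSK591, and the replication genes from 704 and 690 to 312 and 328 CPM.

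The authors' deposited table of the comparison of 7 days of GSK591 with untreated cells, whose counting is not given in the sources used here, names 37 of the 41 genes. Of these, 27 were lower in the authors' deposited table and none higher at an adjusted p under 0.05, with a median of -0.89 against 0.02 for all its genes, 13.0% of which were lower and 10.7% higher. Of the 27, 15 were called from the counts too, 12 in the authors' deposited table alone, and PALB2 and RAD51C from the counts alone. The authors' deposited table gives BLM -2.02, POLQ -2.01, FANCE -1.96, XRCC2 -1.90, FANCI -1.82, FANCD2 -1.70, BRCA2 -1.62 and BRCA1 -1.54 on the log2 scale. In the authors' deposited table ATM stood at -0.09 and KAT5 at -0.19, neither called. ATR was lower at -0.38 (adjusted p = 0.00157), RAD54B was -0.58, and RAD51C was -0.33 with an adjusted p of 0.114. Checkpoint and nuclease genes lower there but not called from the counts also included CHEK1 (-0.89), TOPBP1 (-0.89), EME1 (-0.86) and SLX4 (-0.50). Their adjusted p-values in that table were 0.000103, 1.93e-07, 0.00416 and 0.00431. CHEK2 (0.32) and MUS81 (0.18) were not called in either. Across the 37 genes the changes of the authors' deposited table and those of the counts, which come from the same libraries, correlated with r of 0.729.

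For the other times, the authors' deposited tables called 16 genes lower and 1 higher at 2 days of GSK591 (9.16% and 5.52% of all genes) and 25 and 1 at 4 days (14.0% and 12.9%). For MS023 the authors' deposited tables called 9 lower and 3 higher at 2 days (9.26% and 8.43% of all genes), 15 and 1 at 4 days (12.3% and 10.2%) and 21 and 0 at 7 days (12.3% and 9.63%). Under GSK591, 1 of the 16 and 14 of the 25 were called lower from the counts too (r of 0.691 and 0.687). Under MS023 they were 0 of the 9, 3 of the 15 and 8 of the 21 (r of 0.391, 0.471 and 0.766). FANCC, called lower from the counts at 2 and 4 days of MS023, was not called in the authors' deposited tables (-0.09 and -0.14). The authors' deposited tables called none after 15 min of Dex (0.782% and 3.15% of all genes). After 3 h of Dex the authors' deposited table called 7 genes lower and 3 higher, against 11.0% and 10.9% of all genes. Among the lower were WRN (-0.51), the only 1 called from the counts too, and KAT5 (-0.39, adjusted p = 0.0485). BRCA1 (0.33), RAD51C (0.39) and FANCM (0.52) were higher. In the authors' deposited tables KAT5 was also lower at 4 days of GSK591 (-0.77, adjusted p = 8.20e-05) and of MS023 (-0.45, adjusted p = 0.0136). The counts gave KAT5 -0.14 at 4 days of GSK591, not called. The gene higher at 4 days of each inhibitor was CHEK2 (0.78 and 1.07), which the counts put at -0.23 for GSK591, not called. At 4 days of MS023 no checkpoint gene, CHEK2 included, was called from the counts or exceeded 0.10.

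**Figure D4:**
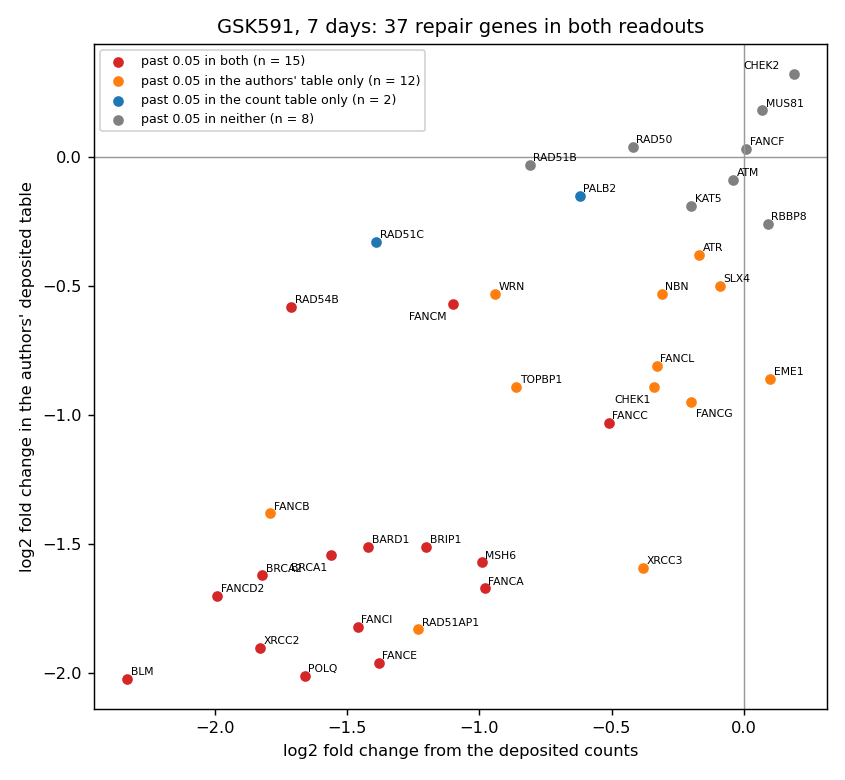
Log2 fold change after 7 days of GSK591 of 37 genes (points) in the authors' deposited table (vertical) against the counts (horizontal). The points follow a common direction (r of 0.729), with RAD51C lower in the counts (-1.39) than in the authors' deposited table (-0.33).

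As a description over the 41 genes, which share the same libraries, the change correlated with gene length at r of -0.275, with exon length at -0.0324 and with mean level at 0.453. Genes called lower had a median gene length of 79.1 kb and a median level of 7.87 CPM, and the other genes 49.3 kb and 10.5 CPM. In GENCODE 29 annotation 25 of the 41 genes have exons that overlap another gene's exons, 6 of them on the same strand and 22 on the opposite strand, and 16 have none. Overlap was present in 9 of the 19 lower genes and 16 of the other 22. ATM overlaps NPAT and C11orf65, KAT5 overlaps RNASEH2C, MUS81 overlaps CFL1 and EFEMP2, and MSH6 overlaps FBXO11. How overlapping reads and strand were handled is not given in the sources used here, so the values of these genes are uncertain in that respect.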

How the data were processed

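The authors deposited raw counts of reads per gene for 30 PRO-seq libraries, made with Subread featureCounts 2.0.1 on hg38, per the submitters' processing notes. Strand use, feature type and aligner settings are not given in the sources used here. The authors' deposited tables of comparisons hold a mean normalised signal per gene (baseMean), log2 fold changes and p-values, raw and adjusted, and list 37 of the 41 genes. They were copied without refitting.

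The counts were analysed with edgeR 4.0.16 (limma 3.58.1, R 4.3.3): filterByExpr (minimum count 10, total 15), trimmed-mean normalisation, 1 quasi-likelihood fit over 15 groups with 15 residual degrees of freedom, and Benjamini-Hochberg adjustment over 22919 genes with a threshold of 0.05, in 26 comparisons. The common BCV (biological coefficient of variation) came to 10.6%, with 34.1 prior degrees of freedom at the median gene. SE is the standard error of the log2 fold change. On simulated counts for 7 days of GSK591 (22574 genes), 66, 66 and 63 genes were given log2 changes of 0.5, 1 and 2. The test called 6.06%, 45.5% and 79.4% of them, and 4.55% of calls were false. Each simulated gene took the spread of the trend with level, without a spread of its own. These rates may therefore differ from those in the data, where more genes changed.

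The genes and lists were chosen with earlier results of these data known. Named by rule were BRCA1, BRCA2, ATM, ATR, FANCD2, KAT5, PARP1, the 12 called genes with the largest changes after 7 days of GSK591, up to 5 per direction elsewhere, up to 3 per other list, and the 3 with the lowest mean level. Other genes were named after their values were seen. Promoter windows reach from 250 bases before to 50 after the RefSeq start (GRCh38.p14). They were taken for the genes with the largest falls and the smallest changes, of which FANCF is not printed. One gene that the rule names is not reported here. Replicate numbers were not treated as pairs. The alternatives were DESeq2 1.42.0, its size factors, total-count scaling, no filter, the compared groups alone, removal of mitochondrial and ribosomal RNA genes, a replicate block, and leaving out each library. The counts limit precision most for genes under about 10 counts per library.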

Additional observations from a re-analysis of the deposited data

How the results depend on the processing

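With total counts as the only scaling, the number of the 41 genes called was 0 (2 days of GSK591), 9 (4 days of GSK591), 14 (2 days of MS023), 14 (4 days of MS023), 19 (7 days of MS023), 3 and 40 (GSK591 against MS023 at 2 and 7 days), 0 and 8 (GSK591 from 2 to 4 and from 4 to 7 days), 0 (Dex for 3 h), 1 (Dex with MS023), 0 (Dex for 3 h after MS023 against MS023), 11 (Dex for 3 h after GSK591 against Dex), 4 and 17 (Dex for 15 min and 3 h after MS023 against Dex), and 37 (GSK591 against MS023 before Dex). The log2 changes that reversed were 0.10 (FANCC) and 0.17 (MSH6) at 2 days of MS023, 0.08 (POLQ), 0.09 (FANCC), 0.13 (MSH6) and 0.30 (FANCA) at 4 days, and 0.12 (POLQ), 0.23 (FANCD2), 0.32 (EXO1), 0.53 (BRCA1), 0.89 (ATM) and 0.33 (PARP1) at 7 days. For GSK591 against MS023 at 7 days MUS81 became -0.67, for MS023 before 3 h of Dex FANCD2, FANCA, FANCG and EME1 became 0.04, 0.15, 0.22 and 0.44, and for GSK591 against MS023 before Dex EME1 and FANCG became -0.34 and -0.43. ATM after 7 days of GSK591 ran from -0.13 to 0.06 with single libraries left out, being 0.06 without untreated replicate 1 and 0.01 without GSK591 replicate 2. The cause was not tested.

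Without the filter the counts were 4 (2 days of GSK591), 2 (GSK591 against MS023 at 2 days), 2 (GSK591 from 4 to 7 days), 2 (MS023 from 4 to 7 days) and 3 (Dex with MS023). With the compared groups alone they were 5 (2 days of GSK591), 6, 10 and 16 (2, 4 and 7 days of MS023), 4 (GSK591 against MS023 at 2 days), 11 and 6 (GSK591 from 2 to 4 and 4 to 7 days), and 2 and 6 (MS023 from 2 to 4 and 4 to 7 days). DESeq2 gave 2 and 6 (4 and 7 days of MS023), 7 and 4 (GSK591 against MS023 at 4 and 7 days), 0 (GSK591 from 4 to 7 days), 1 (Dex with MS023), 0 (Dex after MS023 against MS023), 9 and 2 (MS023 before 15 min and 3 h of Dex) and 7 (GSK591 against MS023 before Dex). DESeq2 size factors, and removal of mitochondrial and ribosomal RNA genes, each gave 1 for Dex after GSK591 against GSK591.

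The replicate numbers pair nothing known: same-numbered libraries of the untreated and each other group correlated at -0.292 to 0.234 in their deviations, with 2 of 14 over 0.1. With a replicate block the counts were 3 (2 days of GSK591), 1 (GSK591 against MS023 at 2 days) and 1 (Dex with MS023), and 20 and 11 for 7 days of GSK591 and of MS023. PARP1 after GSK591 then had an adjusted p of 0.0474 and BRCA1 after MS023 of 0.0422.

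With each library left out in turn, the counts were 1 to 1, 12 to 14 and 13 to 15 (2, 4 and 7 days of GSK591), 1 to 1, 2 to 3 and 5 to 6 (MS023), 0 to 1, 3 to 7 and 2 to 5 (GSK591 against MS023), 1 to 3 and 0 to 1 (GSK591 between times), 0 and 0 to 1 (MS023 between times), 0 and 1 to 2 (Dex for 15 min and 3 h), 0 and 0 to 15 (Dex with GSK591 and with MS023), 0 to 1 and 0 (Dex after GSK591 and after MS023), 16 to 19 and 11 to 14 (GSK591 before 15 min and 3 h of Dex), 5 to 12 and 2 to 4 (MS023 before Dex), 5 to 8 (GSK591 against MS023 before Dex) and 0 (interactions). The lone library of a group is then assumed to vary like the others. Over all alternatives 93 of these counts moved by more than 1.5 times and 201 did not. Of the named changes 762 kept direction and call, 172 kept the direction only, 10 gained a call and 21 reversed.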
